A study of Mus musculus with 12 samples.

Results

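The effect of a single glutamine in the DNA-binding paired domain of Pax7 was measured by comparing AtT-20 cells that expressed Pax7 Q+GL+ with AtT-20 cells that expressed Pax7 Q-GL+. Both isoforms carry the glycine and leucine pair (GL), so that the proteins differ by the glutamine (Q). Each isoform was expressed in its own infected and selected cells, so that isoform and cell pool cannot be told apart. The members are 4 of the 12 RNA-Seq libraries used here, 2 for each isoform, chosen by their labelled genotype. The table holds 16385 genes, and 12023 of them had at least 1 FPKM (fragments scaled for the length of the gene and for the total of the library) in at least 2 of these 4 libraries and were tested. The other 8 libraries, from cells expressing Pax7 Q-GL-, Pax7-465, Pax3 or Pax7 NoTag, served to estimate the spread and as levels set beside the main ones.

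AtT-20 is a mouse pituitary tumor line of the corticotrope type, the cell that makes ACTH. It is reprogrammed toward the melanotrope type when Pax7 without the GL pair is introduced. The study reports that isoforms with GL, as in both groups here, did not turn on most melanotrope genes. They changed far fewer genes than isoforms without GL, and the study calls the effect of Q marginal. In the study each isoform was delivered by a retroviral vector with the CMV promoter and Flag tags at both ends of the protein, and cells that survived Geneticin were kept as mixed pools, so that no group is a single clone. Pax7 was thus driven by a viral and not a pituitary promoter, in a tumor line and not in pituitary cells. The replicates are called biological, but no source used here says that they came from separate infections, so that p-values measure only the spread between these samples, which may be technical.

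Pax7 is a pioneer transcription factor: it opens closed chromatin at enhancers of the melanotrope program and lets Tpit (Tbx19) act there, whereas in muscle it marks satellite cells. It binds DNA through a paired domain, made of the PAI and RED subdomains, and through a homeodomain. Alternative splicing adds or omits the glutamine ahead of helix 4 of RED, and adds or omits GL at the start of helix 6. The splice sites of both insertions are shown because they define the groups. In the mouse gene (Pax7, chromosome 4, minus strand, build GRCm38, annotation of GENCODE) the glutamine is the first codon of exon 3 and residue 108 of both annotated transcripts, at chr4:139829624-139829626, and it stands in capitals in the reading strand with 18 bases on each side. The other pair compares the starts of exon 4 in transcripts Pax7-202 and Pax7-201, where 6 more bases, in capitals, give the GL pair at residues 151 and 152. Both groups here have the longer form. The sequences are those of the annotated gene and not of the constructs.
Q codon in Pax7-202: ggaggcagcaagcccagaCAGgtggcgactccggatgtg
GL present in Pax7-202: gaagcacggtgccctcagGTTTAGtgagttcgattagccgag
GL absent in Pax7-201: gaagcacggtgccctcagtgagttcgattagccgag

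Pax7 mRNA did not differ between the groups beyond the spread of the replicates. Its level was 99.9 and 102 FPKM in the Q+GL+ libraries and 104 and 102 FPKM in the Q-GL+ libraries, a log2 fold change (Q+GL+ over Q-GL+, on log2(FPKM + 1), as for all fold changes below) of -0.03 ± 0.06 (SE). In the Pax3 libraries, which received no Pax7, it was 0.159 and 0.161 FPKM. Gene-level values do not separate isoforms, so that they show that Pax7 was expressed and not which form. The corticotrope markers were strong and close in both groups. Pomc, the ACTH precursor gene, stood at 6146 and 6756 FPKM with the glutamine and at 7226 and 6593 FPKM without it, and Tbx19 at 121 and 133 against 129 and 119 FPKM. The Pomc fold change was -0.10 (adjusted p = 0.798 by limma) and turned to 0.54 (adjusted p = 0.0017) after quantile normalization. Of 8 corticotrope markers tested, 0 passed the test by limma, although 2, Il6st and Lifr, had an unadjusted p under 0.05. Crhr1, the CRH receptor and a defining corticotrope marker, was at 0.243 to 0.392 FPKM and was not tested. Markers of other pituitary endocrine cells summed to 1.01 to 1.39 FPKM with the glutamine and to 1.41 and 1.45 FPKM without it over 5 of 13 genes, with Lhb and Ghrhr listed at 0. Markers of pituitary glia, stem cells and fibroblasts summed to 7.89 and 7.98 against 6.48 and 7.10 FPKM over 7 of 16 genes, with Pdgfra listed at 0. In the NoTag libraries Ghrhr was at 0.231 and 0.291 FPKM and Pdgfra at 0.102 and 0.149 FPKM. Their 0 values here are thus not read as absence.

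The 4 libraries were alike as whole profiles. Pearson's r of log2(FPKM + 1) across genes was 0.986 between the Q+GL+ replicates and 0.985 between the Q-GL+ replicates, and 0.983 to 0.987 between libraries of different isoforms, so that the ranges within and between isoforms overlapped. The median absolute difference between replicates on the log2 scale was 0.098 for Q+GL+ and 0.11 for Q-GL+, and that between the group means was 0.10. The summed FPKM was 431988 and 456879 for Q+GL+ and 469900 and 443840 for Q-GL+. A set of 5 abundant small RNAs (Rn7sk, Rpph1, Rmrp, Rny1 and Rny3) moved with the groups: it held 12.1% and 11.97% of the summed FPKM with the glutamine and 14.7% and 15.3% without it. Its part in the results was not tested. The table gives no read counts, so that the depth is unknown. The NoTag libraries stood apart, with r of 0.948 to 0.960 to all others, and counts are given with and without them.

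Of 12023 genes tested, 127 (1.06%) differed between the isoforms at a Benjamini-Hochberg adjusted p under 0.05 in limma, 61 (0.507%) higher and 66 (0.549%) lower with the glutamine. Most changes were small: 8 genes (0.0665%) also had an absolute log2 fold change of at least 1, 2 higher (0.0166%, Cd74 and AI662270, the latter described with its limit below) and 6 lower (0.0499%, Hmcn2, Tspan8, Trp53i11, Hes1, Tac4 and Fxyd3). The median log2 fold change of all genes tested was 0.02. Libraries of the groups did not overlap for 5439 genes (45.2%), among them all 127. In the 10-library fit without NoTag, 79 genes passed, 29 higher and 50 lower. Among genes named below, those that lost the call there on the higher side were Chgb, Tubb3, Glce, Hal, Sorcs2, Gm13736, Ypel4, Ypel5 and Lbh. On the lower side they were Pcsk2, Fgf1, Atp5e, Wfdc2, Ddx3x, Rgs9, Neurl3, Spata13, Snhg1, Gm6463 and Mat2a. The count also fell when any 1 library was left out, to 49 or 33 when replicate 1 or 2 of Q+GL+ was omitted and to 27 or 30 when replicate 1 or 2 of Q-GL+ was omitted. In these fits the remaining library of a group is assumed to vary like the other groups. Calls that passed in the full fit and in all 4 of these fits numbered 19 (0.158%), 6 higher (0.0499%) and 13 lower (0.108%). A further 5 passed in 3 of the 4, and 69 were called with all 4 libraries alone. The plot of fold change against mean level shows these genes among all those tested, and the plot of calls by setting gives the counts.

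**Figure D1:**
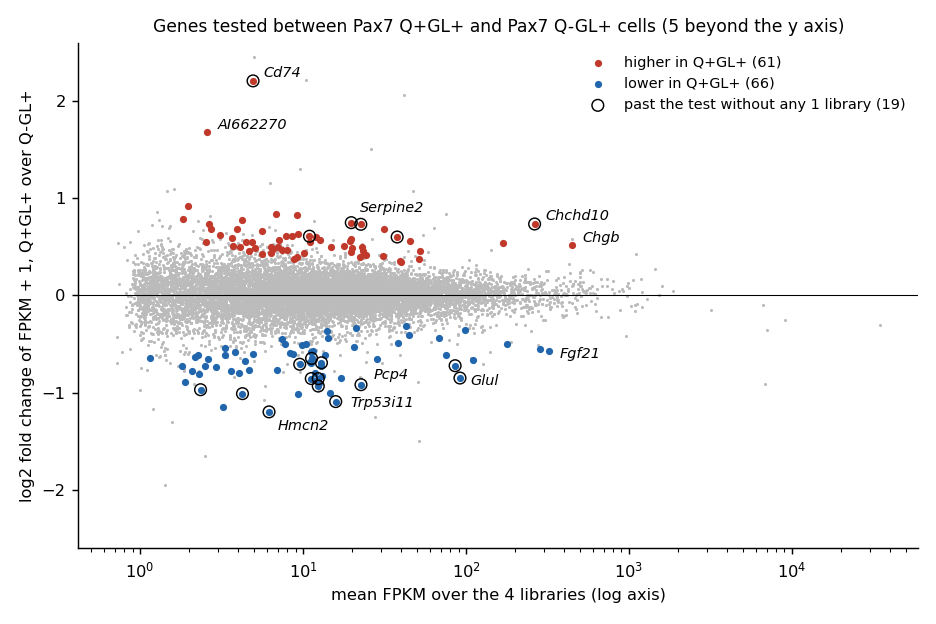
Log2 fold change of FPKM + 1 (Q+GL+ over Q-GL+) against the mean FPKM of the 4 libraries on a log axis, 1 point per gene tested, with the 61 genes higher and the 66 genes lower in Q+GL+ in color and the 19 that also passed without any 1 library circled. Cd74 and AI662270 stand above the other genes past the test, most of which lie within 1 log2 unit of 0, and 5 genes that did not pass lie beyond the axis.

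**Figure D2:**
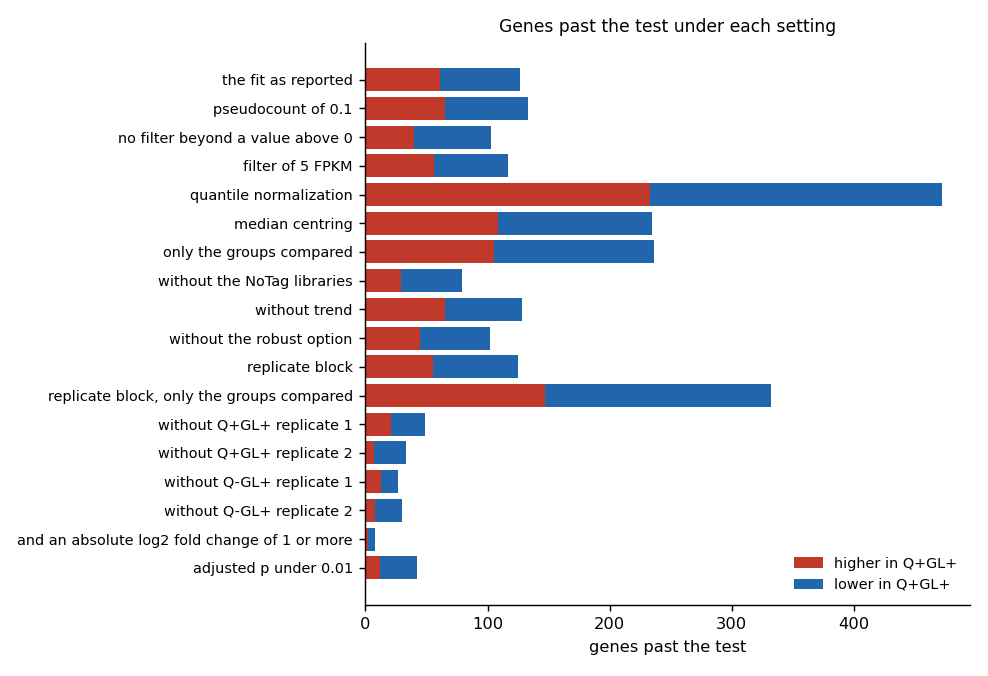
Number of genes past the test under each setting, as bars from 0 split into genes higher (red) and lower (blue) in Q+GL+. The fit as reported gave 127 genes, fits without 1 of the 4 libraries 27 to 49, the fit without the NoTag libraries 79 and quantile normalization 472.

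Cd74, the invariant chain that accompanies MHC class II molecules, was the gene with the largest change among those past the test (chr18:60803847-60812646, plus strand). It was at 8.13 and 9.38 FPKM in Q+GL+ cells and at 1.09 and 1.13 FPKM in Q-GL+ cells. Both Q+GL+ libraries were thus several times above both Q-GL+ libraries, and the ratio of the mean FPKM was 7.90. The log2 fold change was 2.21 ± 0.14 (SE), with a limma adjusted p of 1.30e-05 that stayed at 0.000519 or below when any 1 library was left out. Cd74 was the 1 call among the 6 MHC class II genes tested, beside 1.06% of all genes tested. Rfx5, a factor that drives class II promoters, had a log2 fold change of 0.46 (adjusted p = 0.176) and Ifi30, a lysosomal reductase of antigen processing, 0.36 (adjusted p = 0.106), whereas H2-DMa, the class II peptide exchanger, was at 1.03 to 1.44 FPKM in all 4 libraries. The class II chains H2-Aa, H2-Ab1 and H2-Eb1 and the activator Ciita were not analysed here. Leukocytes also express Cd74. Of 15 leukocyte and endothelial markers, 4 were analysed here, and their summed level was 1.58 and 1.19 FPKM with the glutamine and 1.601 and 1.40 FPKM without it, with Csf1r listed at 0. Csf1r was at 0.00988 and 0.0125 FPKM in the NoTag libraries, so that its 0 is not read as absence. In bulk RNA, a change in the level of RNA per cell and one in the share of cells with that RNA cannot be told apart.

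The other calls that held with any 1 library left out on the higher side were Serpine2, Chchd10, Klhl24, Thra and Cxcl12, the last 2 of which are named here after their values were seen. Serpine2, a secreted inhibitor of thrombin and plasminogen activators, was at 24.8 and 25.2 FPKM with the glutamine and 14.1 and 14.9 FPKM without it. Its log2 fold change was 0.75 ± 0.08 (adjusted p = 0.00106). Chchd10, a mitochondrial protein of the intermembrane space, was the most abundant of the 6, at 325 and 334 against 202 and 194 FPKM, a log2 fold change of 0.73 ± 0.09. Libraries of the groups were far apart for both genes compared with the distance between replicates. Klhl24, a substrate adaptor of a cullin ubiquitin ligase, rose from 17.6 and 15.9 FPKM to 27.3 and 29.7 FPKM. Thra, the thyroid hormone receptor alpha gene, was at 13.5 and 13.4 against 8.73 and 8.20 FPKM, and Cxcl12, a chemokine that signals through Cxcr4, at 47.1 and 44.5 against 29.5 and 30.2 FPKM. For these 5 genes the highest adjusted p over the 4 omissions was 0.0456.

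Further genes with large rises were less stable. AI662270, a noncoding processed transcript (chr11:83223575-83226604), was at 4.42 and 4.49 FPKM in Q+GL+ and 0.517 and 0.912 FPKM in Q-GL+ cells. Its fitted difference was 1.68 ± 0.22, and it passed the filter on low values only through the Q+GL+ libraries, so that the difference is given as a description. Without either of them it fell below the filter on low values and was not tested. Plin2, which coats lipid droplets, was at 11.7 and 12.3 against 6.34 and 6.26 FPKM, and Ak1, adenylate kinase, at 7.88 and 10.1 against 4.66 and 4.49 FPKM, both with a log2 fold change of 0.83. Plin2 lost its call without Q+GL+ replicate 2 or either Q-GL+ library (adjusted p up to 0.0606), and Ak1 without Q+GL+ replicate 2 or Q-GL+ replicate 2 (adjusted p up to 0.0516). Hal, the first enzyme of histidine breakdown, Krt4, a keratin, Sorcs2, a sorting receptor, Prr7, Tmem132b, the pseudogene Gm13736 and the antisense transcript Gm27199 had log2 fold changes of 0.66 to 0.92. Sorcs2 and Krt4 passed in 1 of the 4 omissions and the other 5 in 0, with adjusted p of up to 0.314. Whether the counting used strand is not stated in the sources used here, so that Gm27199 and the gene opposite it cannot be told apart.

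Among the genes that fell with the glutamine, Hmcn2 had the largest change. Hmcn2 encodes hemicentin 2, a very large protein of the extracellular matrix (chr2:31314414-31460738, plus strand). It was at 3.53 and 3.17 FPKM in Q+GL+ and at 8.09 and 9.94 FPKM in Q-GL+ cells. The log2 fold change was -1.20 ± 0.12 (adjusted p = 0.00057) and ranged from -1.33 to -1.06 over the 4 omissions. Eln, the elastin gene, was at 9.44 and 9.92 against 16.4 and 16.1 FPKM, and also held in all 4 omissions (adjusted p up to 0.0429). These were the calls among 17 matrix genes tested, beside 0.549% lower and 0.507% higher of all genes tested. The laminin chain gene Lamb3 (-0.59, adjusted p = 0.0877) and the collagen gene Col18a1 (-0.38, adjusted p = 0.0683) did not pass, and the median of the list was -0.13 beside 0.02 for all genes. Bcam, a laminin receptor named here after its values were seen, was at 8.35 and 8.78 against 14.1 and 13.9 FPKM.

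Of 7 genes of peptide hormones and neuropeptides tested, 2 fell, 0 rose and 5 did not pass. Of all genes tested, 0.549% were lower and 0.507% higher. Tac4, a precursor of tachykinin peptides, was at 2.36 and 2.605 FPKM with the glutamine and at 6.10 and 5.93 FPKM without it, a log2 fold change of -1.01 ± 0.12 (adjusted p = 0.00125). Iapp, the amylin precursor, was at 6.69 and 7.31 against 12.8 and 11.4 FPKM, a log2 fold change of -0.71 ± 0.08. Both held without any 1 library, and no library of one group reached those of the other. The values of the list ran from -1.01 to 0.21. Calca, a gene related in its product to Iapp, was at 12.1 and 10.4 against 16.03 and 13.5 FPKM and did not pass (adjusted p = 0.189).

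Other calls on the lower side that held without any 1 library were of mixed function. Trp53i11, named for its induction by p53, was at 9.26 and 10.3 against 23.6 and 20.3 FPKM, a log2 fold change of -1.09 ± 0.09 (adjusted p = 0.000104). Glul, glutamine synthetase, was at 63.9 and 66.6 against 121 and 115 FPKM, a log2 fold change of -0.85 ± 0.10. Pcp4, a small protein that binds calmodulin, was at 14.6 and 16.1 against 29.7 and 30.2 FPKM. In each of the 3 genes both Q-GL+ libraries were well above both Q+GL+ libraries. Sytl2, an effector of Rab27 in granule docking, was at 7.26 and 8.17 against 14.5 and 15.03 FPKM. Fam57b fell by 0.93 on the log2 scale, and Ifrd1, named after its values were seen, fell by 0.72. Gm14267, a transcribed pseudogene, fell by 0.86 and Gm11469, which lies inside it on the same strand, by 0.62, so that their reads cannot be assigned to one or the other with confidence. Unlike Gm14267, Gm11469, named after its values were seen, lost the call without Q+GL+ replicate 1 (adjusted p = 0.106) or Q-GL+ replicate 1 (adjusted p = 0.123).

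**Figure D3:**
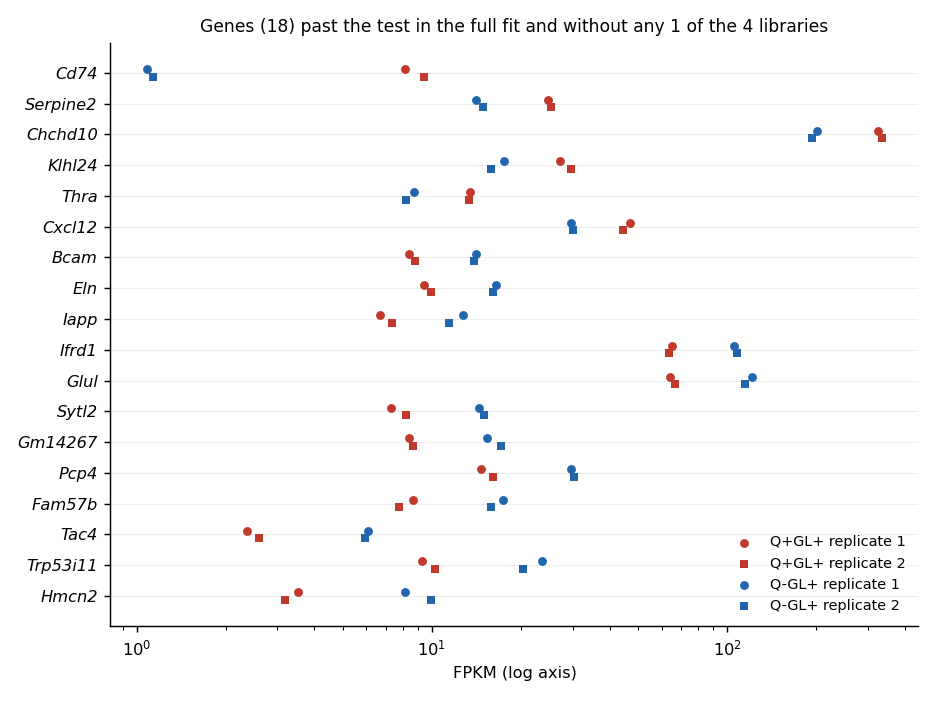
FPKM on a log axis of 18 of the 19 genes that passed in the full fit and without any 1 of the 4 libraries, with Q+GL+ in red, Q-GL+ in blue, replicate 1 as circles and replicate 2 as squares. In each of the 18 genes both libraries of one isoform lie on the same side of both libraries of the other. This holds for all 127 genes past the test and for 45.2% of all genes tested. Cd74 has the widest gap on this axis, from 1.13 to 8.13 FPKM.

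Hes1, a repressor that acts downstream of Notch, was at 5.28 and 6.35 FPKM with the glutamine and 11.95 and 13.5 FPKM without it, a log2 fold change of -1.01 ± 0.16 (adjusted p = 0.0091). It kept the call without Q+GL+ replicate 2 and lost it in the other 3 omissions (adjusted p up to 0.105). It was the 1 call among 17 Notch pathway genes tested, whose median was -0.02, beside 1.06% called of all genes tested. Hey1 and Hes5, targets of the same pathway, had values of -0.15 and 0.05. Hes5 was at 0.820 to 1.16 FPKM, near the limit of the filter, where a fold change on this scale is understated. Fxyd3, a regulator of the sodium pump, was at 9.22 and 9.57 against 19.6 and 20.1 FPKM (log2 fold change of -1.004) and Tspan8, a tetraspanin, at 1.66 and 1.58 against 5.01 and 4.65 FPKM (-1.15). Fxyd3 lost the call in all 4 omissions (adjusted p up to 0.0764) and Tspan8 without Q-GL+ replicate 1 (adjusted p = 0.0641). Upk3a, a uroplakin, Spata13, and Neurl3, a ubiquitin ligase, had log2 fold changes of -0.85, -0.89 and -0.90. Upk3a lost the call without Q+GL+ replicate 1 or Q-GL+ replicate 1, and Spata13 and Neurl3 in all 4 omissions, with adjusted p of up to 0.302.

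The melanotrope genes were lower with the glutamine where they differed. Of the 7 melanotrope markers tested, 3 were lower and 0 higher, against 0.549% and 0.507% of all genes, and the median was -0.34. The 3 (Megf11, Oacyl and Pcsk2) are also labelled by the study on a comparison that includes Q+GL+ cells. This count is thus not independent evidence of their direction. Megf11 was at 60.8 and 58.6 FPKM in Q+GL+ and 93.4 and 90.7 FPKM in Q-GL+ cells (-0.62 ± 0.09, adjusted p = 0.0057). Oacyl was at 2.52 and 2.31 against 4.34 and 4.11 FPKM (-0.61 ± 0.10, adjusted p = 0.0105). Pcsk2, the convertase that cuts ACTH to the melanotrope peptide, was at 11.7 and 12.5 against 16.2 and 15.4 FPKM (-0.36 ± 0.07, adjusted p = 0.0412). None of the 3 calls held in all 4 omissions. Megf11 and Oacyl passed without Q+GL+ replicate 1 and lost the call in the other 3 omissions (adjusted p up to 0.0726 and 0.114), and Pcsk2 lost it in all 4 (adjusted p up to 0.224), although the fold change stayed negative in each. The Pcsk2 call was also lost without the NoTag libraries (adjusted p = 0.0791) and in the fit of the 4 libraries alone (adjusted p = 0.0618). Ddc, which encodes a dopamine-forming decarboxylase, was at 93.9 and 102 against 129 and 119 FPKM and did not pass (adjusted p = 0.114). Cacng4 (-0.19), Pomc (-0.10) and Pax7 (-0.03) were the rest of the 7, and Drd2 was not analysed here.

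Of the 12 genes that the study labels as melanotrope genes, 11 were tested and 4 fell: Eln, Megf11, Oacyl and Pcsk2. Among all genes tested, 0.549% were lower. The study took its melanotrope genes from earlier work and labels these on a comparison that includes the Q+GL+ cells, so that the list is not independent evidence of its direction. Its median was -0.28. Megf11, Oacyl, Pcsk2 and Pax7 are members of both melanotrope lists, so that the medians of the lists are not separate results. Ttyh1, a chloride channel gene, was at 18.3 and 20.8 against 31.4 and 28.2 FPKM, and passed in neither the full fit (adjusted p = 0.104) nor any omission, although it passed in the fit of the 4 libraries alone (-0.58) and after quantile normalization (-0.61). Mybpc1 had -0.28 (adjusted p = 0.284), Timp2 -0.18 (adjusted p = 0.291), Lmcd1 -0.12, Kit -0.02, Pax7 -0.03 and Mest 0.20 (adjusted p = 0.280). In its tests of Pax7 mutants the study uses Lmcd1 and Pde2a as targets that need no pioneer action, unlike Pcsk2. Pde2a was listed at 0 in all 4 libraries, as in the Q-GL-, Pax3 and Pax7-465 libraries, but at 11.54 and 11.53 FPKM in the NoTag libraries, so that the 0 is not read as low expression. Pcsk1, the convertase that makes ACTH, was at 288 and 310 FPKM with the glutamine and at 291 and 270 FPKM without it (0.09 ± 0.09). None of 19 pituitary transcription factors tested passed by limma, with 0 at an unadjusted p under 0.05, and their values ran from -0.14 for Gata2 to 0.19 for Sox2.

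Genes of prohormone processing and secretory granules did not move one way. Of 35 tested, 1 rose and 2 fell, beside 0.507% and 0.549% of all genes tested. Chgb, the chromogranin B of dense-core granules, was at 506 and 543 FPKM with the glutamine and at 382 and 352 FPKM without it (log2 fold change of 0.51 ± 0.09, adjusted p = 0.0233), whereas Pcsk2 and Sytl2 fell. The Chgb call was lost in all 4 omissions (adjusted p up to 0.235) and without the NoTag libraries (adjusted p = 0.0525). Chga, the chromogranin A gene, had a value of -0.12 and Scg2 one of 0.12, neither past the test.

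The p53 target list was the one with most calls on the higher side: 3 of 26 rose and 1 fell, beside 0.507% and 0.549% of all genes tested, with a median of 0.09. Trp53inp1, an autophagy regulator, was at 39.5 and 38.4 against 26.0 and 22.02 FPKM (0.68 ± 0.10, adjusted p = 0.00527). Ccng1, cyclin G1, was at 58.9 and 62.2 against 45.5 and 41.9 FPKM (0.46 ± 0.09), and Eda2r, a receptor of the TNF family, at 8.36 and 8.97 against 5.35 and 5.68 FPKM (0.57 ± 0.09). Trp53i11 is the member that fell. Trp53inp1 lost the call without Q-GL+ replicate 2 (adjusted p = 0.0685), and Ccng1 and Eda2r in all 4 omissions (adjusted p up to 0.228). The best known targets did not pass: Mdm2, the p53 ubiquitin ligase, had 0.16 (adjusted p = 0.345), Bax 0.26 (adjusted p = 0.207) and Cdkn1a, the p21 gene, -0.23, with libraries of 38.4 and 22.5 against 28.5 and 42.2 FPKM that overlapped. Of the 26, 9 had an unadjusted p under 0.05 on the higher side and 4 on the lower side, against 924 and 705 of all genes tested.

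Other lists gave 1 to 3 calls each, beside 1.06% of all genes tested. Among 15 serpins and other protease inhibitors, Serpine2 rose, and Cst6, a cystatin (1.81 and 2.06 against 3.99 and 3.80 FPKM), and Wfdc2 (139 and 157 against 216 and 202 FPKM) fell. Of 27 genes of calcium and calmodulin binding, Gap43, a growth cone protein, rose (24.2 and 23.6 against 15.9 and 15.3 FPKM) and Pcp4 fell. Of 20 MHC class I genes, H2-T23, a nonclassical molecule, fell (30.2 and 33.2 against 47.2 and 42.6 FPKM), whereas the classical genes H2-K1 and H2-D1 had 0.02 and 0.18. Isg15, an interferon-induced ubiquitin-like protein, was lower (8.23 and 8.49 against 13.1 and 15.2 FPKM), the 1 call among 32 interferon response genes with a median of -0.03. Klf4, of 29 immediate early genes, Scn2b, a sodium channel subunit of 29 voltage-gated channel genes, and Rgs9, of 11 regulators of G-protein signalling, fell by 0.54, 0.54 and 0.34. Except for Serpine2 and Pcp4, these calls were lost in at least 3 of the 4 omissions. Cst6 held without Q+GL+ replicate 2 and Isg15 without Q-GL+ replicate 1 alone, and the other 6 in none, with adjusted p of up to 0.244.

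Several lists held no gene past the test by limma, which at 1.06% of all genes called says little of lists of this size. These were cholesterol synthesis (0 of 25), cell cycle (0 of 46), endoplasmic reticulum folding and the unfolded protein response (0 of 31), heat shock (0 of 11), chromatin remodelers and partners of Pax7 (0 of 39), myogenic genes (0 of 8), ribosomal proteins (0 of 55), replication-dependent histones (0 of 4) and the 2 genes tested of glia, stem cells and fibroblasts. At an unadjusted p under 0.05 they held 1, 3, 8, 0, 1, 1, 0, 0 and 0 genes. Smarca4, the Brg1 remodeler, was at 66.2 and 68.0 against 69.6 and 66.1 FPKM, and Ash2l, a subunit of histone methyltransferase complexes, at 112 and 117 against 108 and 99.3 FPKM. Their log2 fold changes were -0.02 ± 0.08 and 0.14 ± 0.09. Mitochondrially encoded genes, and markers of leukocytes, endothelium and other pituitary endocrine cells, gave 0 genes to test. The plot of the lists shows the spread of each.

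**Figure D4:**
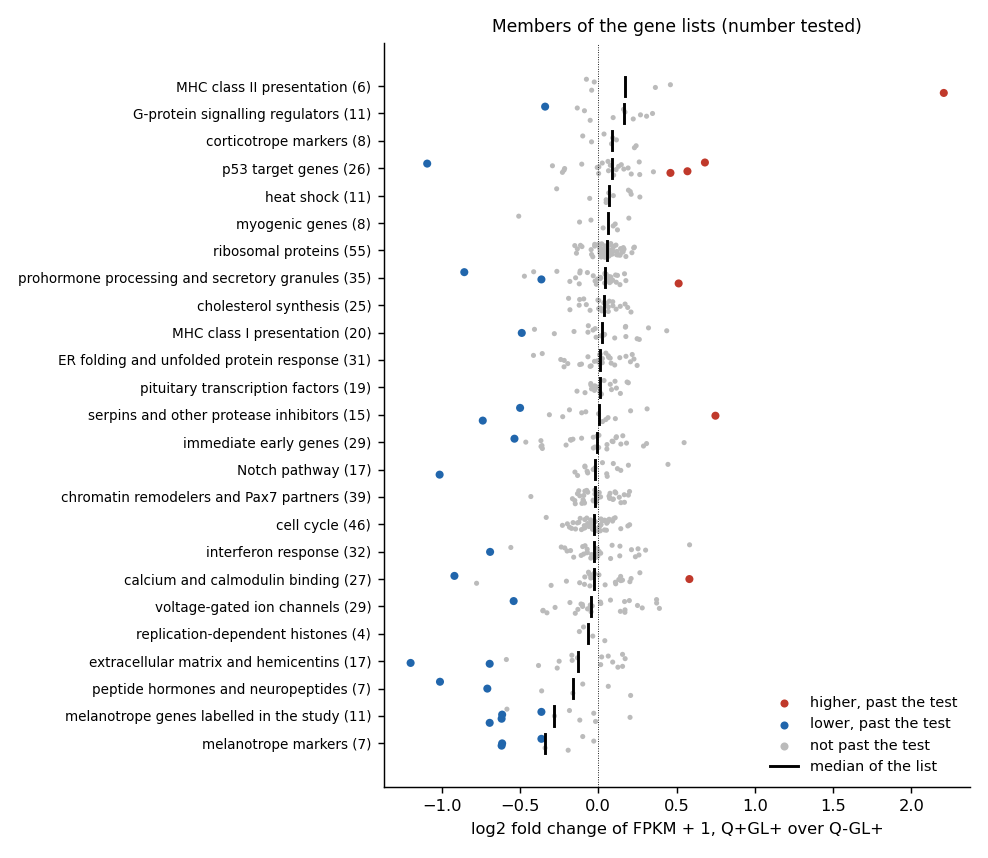
Log2 fold change of FPKM + 1 (Q+GL+ over Q-GL+) of each tested member of the lists with at least 4 genes tested, with calls in color and the median as a bar. The melanotrope lists, which share members, have the lowest medians, -0.34 and -0.28, and MHC class II holds the far point of Cd74 at 2.21.

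The most abundant genes past the test were Chgb, Chchd10, Tubb3, Glce and Ccng1 on the higher side and Fgf21, Atp5e, Wfdc2, Krt23 and Ddx3x on the lower. Tubb3, a neuronal beta tubulin, was at 190 and 208 against 143 and 131 FPKM, and Glce, an enzyme of heparan sulfate synthesis, at 56.8 and 59.1 against 43.8 and 45.1 FPKM. Fgf21, a secreted metabolic hormone, was at 252 and 267 FPKM with the glutamine and at 405 and 369 FPKM without it. Atp5e, a small subunit of ATP synthase, was at 241 and 219 against 334 and 342 FPKM. Yet it was the 1 call among 18 genes with symbols that start with Atp5, a group chosen after values were seen, whose median was 0.03. Krt23, a type I keratin, was at 84.2 and 85.8 against 140 and 131 FPKM and lost the call without Q-GL+ replicate 1 alone (adjusted p = 0.0598). Ddx3x, an RNA helicase, was at 88.1 and 85.7 against 113 and 110 FPKM. Apart from Chchd10 and Krt23, these genes lost the call in all 4 omissions, with adjusted p of up to 0.271.

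Some families, picked after their values were seen, had more than 1 call, and their counts have no test. Beside them, 0.507% of all genes tested were higher and 0.549% lower. Of 11 keratin genes tested, Krt4 rose and Krt23 and Krt17 fell, and 9 were below 0. Of 5 Fgf genes, Fgf1 and Fgf21 fell. Both cyclin G genes tested (Ccng1 and Ccng2) rose, as did 2 of 5 Ypel genes (Ypel4 and Ypel5), 2 of 26 Klhl genes (Klhl13 and Klhl24), and Gprasp1 and Gprasp2 of 9 genes in their group. Of these genes, Fgf1, Fgf21, Ccng1, Ccng2 and Ypel4 lost the call in all 4 omissions, Krt4, Krt17, Ypel5, Klhl13, Gprasp1 and Gprasp2 in 3, Krt23 in 1 and Klhl24 in 0. Without the NoTag libraries Fgf1 (adjusted p = 0.0667), Ypel4 (adjusted p = 0.0802) and Ypel5 (adjusted p = 0.0791) did not pass in limma. Gprasp1 and Gprasp2 lie 35.6 kb apart on chromosome X. Of all 127 genes, 5 pairs lay within 100 kb of each other, and each pair moved in the same direction: Gprasp1 with Gprasp2, Derl3 with Chchd10, Ypel5 with Lbh, Scn2b with Tmprss4, and Gm14267 with Gm11469. The genes of the last pair overlap, so that they may share reads. The share of such pairs among all genes tested is not given here.

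The promoters were searched because the glutamine lies in the paired domain. The letters GTCACGC, a core of the paired domain site, and TAATTA, the homeodomain core, were sought on both strands from 250 bases before to 50 bases after the start, in sequences of RefSeq (GRCm38.p6), which held 93 of the 127 genes. GTCACGC was present in 2 of 45 promoters of higher genes and 4 of 48 of lower genes, beside 4.73% of the 9047 promoters of tested genes. TAATTA was present in 0 of 45 and 1 of 48, beside 3.10%. These few matches are a description of this window, and enhancers were not read. Among the genes named for the largest fold changes, Hmcn2 and Neurl3 had a match, and their promoters are shown, as the 250 bases before the start, with the matches in capitals: that of Hmcn2 (chr2:31314082-31314331, plus strand) holds GTCACGC 98 bases before the start, and that of Neurl3 (chr1:36273426-36273675, minus strand) holds the reverse complement 88 bases and TAATTA 75 bases before the start.
Hmcn2: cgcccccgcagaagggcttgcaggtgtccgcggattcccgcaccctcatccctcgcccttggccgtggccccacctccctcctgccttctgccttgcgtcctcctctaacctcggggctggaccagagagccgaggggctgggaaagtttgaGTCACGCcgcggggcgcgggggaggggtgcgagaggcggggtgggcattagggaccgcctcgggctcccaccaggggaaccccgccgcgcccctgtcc
Neurl3: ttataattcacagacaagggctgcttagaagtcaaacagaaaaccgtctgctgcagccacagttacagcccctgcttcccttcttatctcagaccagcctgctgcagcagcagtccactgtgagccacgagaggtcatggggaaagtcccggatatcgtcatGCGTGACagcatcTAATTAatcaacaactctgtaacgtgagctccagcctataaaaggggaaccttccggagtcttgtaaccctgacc

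Levels in the other groups place these genes in the series. The values below come from the same table, with no test, and cells with neither insertion (Q-GL-) differ from Q-GL+ cells by the GL pair. Of the 127 genes past the test, the Q-GL- mean lay nearer Q+GL+ than Q-GL+ for 88 (69.3%), beside 55.7% of all genes tested. The share was 52.8% for Pax3, beside 50.2%, and 36.2% for Pax7-465, beside 47.3%. Cd74 in Q-GL- cells was at 7.28 and 8.45 FPKM, near the Q+GL+ level, and in Pax3, Pax7-465 and NoTag cells at 2.63 to 4.71 FPKM, between both isoforms. Serpine2 was higher than in either isoform in Q-GL- (40.3 and 45.9 FPKM), Pax7-465 (33.6 and 32.4 FPKM) and NoTag cells (51.3 and 47.0 FPKM), and in Pax3 cells (15.004 and 14.6 FPKM) it was near the Q-GL+ level. Trp53i11 was at 9.09 to 12.1 FPKM in Q-GL-, Pax3 and Pax7-465 cells, near Q+GL+, and at 23.1 and 22.8 FPKM in NoTag cells, near Q-GL+. The melanotrope genes had a different order. Oacyl was at 11.1 and 10.6 FPKM and Pcsk2 at 35.8 and 36.6 FPKM in Q-GL- cells, above both isoforms with GL, while in Pax3 cells Oacyl was at 1.69 and 2.08 FPKM and Pcsk2 at 17.2 and 18.9 FPKM. For Pcsk2 the Q+GL+ level of 11.7 and 12.5 FPKM was below all other groups. Eln was at 12.9 to 21.2 FPKM in all groups other than Q+GL+, so that its 9.44 and 9.92 FPKM there were the lowest levels of the 12 libraries. The plot of 9 genes in the 6 groups shows these orders.

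**Figure D5:**
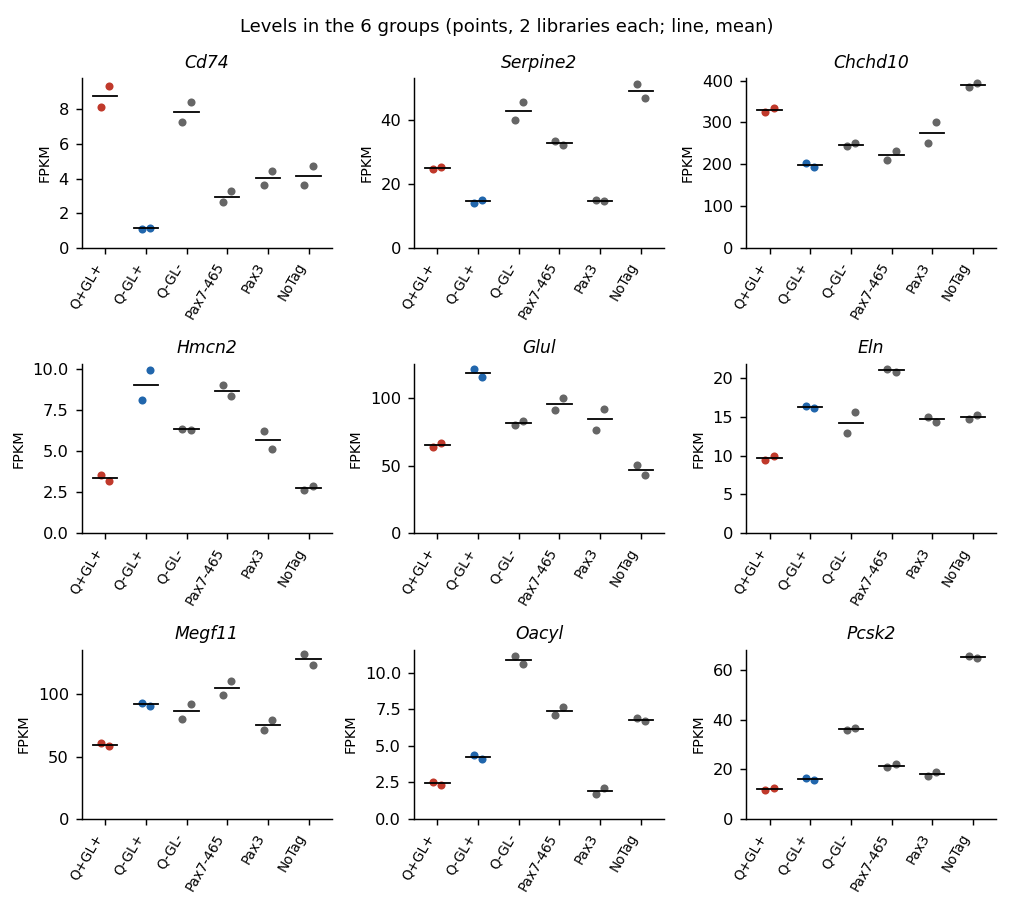
FPKM of 9 genes in the 6 groups, 1 panel per gene with its own axis from 0, points for the 2 libraries of a group and a line for their mean, with Q+GL+ in red and Q-GL+ in blue. Cd74 in Q-GL- cells (7.28 and 8.45 FPKM) is near Q+GL+, and Oacyl (11.1 and 10.6 FPKM) and Pcsk2 (35.8 and 36.6 FPKM) in Q-GL- cells are above both.

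Large fitted differences did not always pass. Of 30 genes with an absolute log2 fold change of at least 1, 22 did not pass. They include Snord32a (4.81 ± 3.52) and Scarna17 (4.60 ± 3.57) on the higher side and Snord83b (-3.96 ± 3.86) on the lower side, each with an SE not far below its value. Fhit, a tumor suppressor gene at a fragile site, had a value of 1.15 ± 0.26 (adjusted p = 0.0877), with 6.29 and 12.04 against 3.87 and 2.95 FPKM. Genes below the filter numbered 4362, of which 1281 were listed at 0 in all 4 libraries, and 737 of these were above 0 in both NoTag libraries. Next to the limit of 1 FPKM in the second highest library, Tmem82 was tested, with 1.04 FPKM in one Q+GL+ library and just over the limit in the other, and Krt8-ps, at 0.998 FPKM in its second highest library, was left out.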

How the data were processed

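The authors trimmed strand-specific paired-end reads of ribosome-depleted RNA with Trimmomatic, mapped them with TopHat2 to Ensembl GRCm38 (mm10) and quantified genes with HOMER, and the deposited values are taken as FPKM per gene and library from that method, since the header names no unit. The versions of these tools as run on the RNA reads, the normalization total and the strand setting of the counting are not given in the sources used here. The authors name edgeR for their own comparisons, which takes counts. The table holds none, so that limma was used on the normalized values. The values of 4 more columns were set aside. Groups came from the labelled genotypes.

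Values were taken as log2(FPKM + 1). Genes that reached 1 FPKM in 2 or more of the 4 libraries entered 1 fit of all 12 libraries (limma 3.58.1 with trend and robust options, R 4.3.3), with 1 coefficient per group and a two-sided moderated test of Q+GL+ minus Q-GL+, adjusted over 12023 genes by Benjamini-Hochberg. The fit was tested on simulated data. A fold change on this scale understates the change of low genes. Ratios of FPKM, where given, are of group means.

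The text names, in each direction, up to 15 genes that passed with the largest fold change (group libraries not overlapping, mean in the higher group 1 FPKM or more) and up to 5 with the highest level, up to 4 called members of each list by adjusted p, and genes the study names or that mark the line. There were 29 lists. A gene that passed is counted but not reported by name here. Members and lists were chosen with earlier results of these data known, and lists are described by counts and medians without a set test. In all, 17 alternatives were run: the pseudocount, the filter, the scaling, the libraries in the fit, the trend and robust options, the replicate number as a block, the threshold and each of the 4 libraries left out.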

Additional observations from a re-analysis of the deposited data

How the results depend on the processing

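The count of genes past the test depended on the scaling and on which libraries set the spread. It was 127 (61 higher, 66 lower) as reported, 472 (233 and 239) after quantile normalization, 235 (109 and 126) after median centring, 236 (105 and 131) in the fit of only the 4 libraries, and 79 (29 and 50) without the NoTag libraries. Stricter thresholds gave 42 (12 and 30) at an adjusted p under 0.01 and 8 (2 and 6) with an absolute log2 fold change of at least 1. Without a filter, 40 genes were higher and 63 lower. Leaving out 1 library gave 27 to 49 genes, 7 to 21 higher and 14 to 28 lower. Quantile normalization kept all 127 calls, the fit of only the 4 libraries 118 and the fit without the NoTag libraries 77. A pseudocount of 0.1, the filter of 5 FPKM, and the fits without trend or the robust option gave 102 to 133 genes.

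The replicate numbers are shared by the groups, but deviations of same-numbered Q+GL+ and Q-GL+ libraries had r = -0.054, so that no pairing by number was seen there. Over all pairs of groups r ran from -0.14 to 0.19, and whether the numbers mark a batch is not known. With the replicate block, 125 genes passed (55 higher, 70 lower), 113 of them among the 127, and 332 (147 and 185) with the block in the fit of only the 4 libraries.

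Over the 64 named genes with a value, 764 values under the alternatives kept their direction and side of the threshold, 6 changed sign without passing in either fit (Kit, Smarca4 and Tbx19), 170 fell short of the threshold and 3, all of Ttyh1, passed it. Pomc reversed under quantile normalization, to 0.54 (adjusted p = 0.0017), and the cause was not tested. With 2 libraries per group and unknown depth, the smallest change past the test was that of Mat2a, -0.32 on the log2 scale. Its call was lost without the NoTag libraries (limma adjusted p = 0.0798) and in the fit of only the 4 libraries (limma adjusted p = 0.0618). The call was also lost with the replicate block and when any 1 of the 4 libraries was left out. Smaller changes may have gone unseen.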

Other observations

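Calls were also counted by chromosome. Chromosome 7 held 10 lower and 0 higher genes, with 7.97% of the genes tested, and among the 10 are Fxyd3, Fam57b, Sytl2, Bcam and Fgf21. Chromosome X held 5 higher genes and 1 lower gene, Ddx3x, with 3.41% of the genes tested. These counts were noticed after the values were seen and have no test.

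Length and level of the genes past the test were compared with all genes tested. The median summed exon length was 4253 bases for higher genes (61 of 61 matched), 3687 bases for lower genes (65 of 66 matched) and 4335 bases for all genes tested, and the median level was 9.15, 11.2 and 12.6 FPKM. Protein-coding genes made up 95.1% of the higher and 93.9% of the lower genes, beside 92.2% of all genes tested. Noncoding genes among the calls include Snhg1, a host of small nucleolar RNAs, with a log2 fold change of -0.41, and the pseudogene Gm6463, with -0.59. Both lost the call without the NoTag libraries (limma adjusted p = 0.0769 and 0.0564). They also lost it when any 1 of the 4 libraries was left out.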
